A study of Mus musculus with 8 samples.

Results

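The effect of spinal cord injury (SCI) on the miRNAs of muscle that had received no cardiotoxin was read from 4 of the 8 RNA pools of the series. These were PBS + SHAM and PBS + SCI at D2 and at D4 after surgery, paired by day. Each pool held RNA of 3 gastrocnemius muscles from female C57Bl/6 mice of 6 to 8 weeks, and each condition had 1 pool. In the SCI groups the cord was transected at the lower thoracic level, while the SHAM groups had control surgery. All 4 pools came from muscle injected with 150 µL of phosphate-buffered saline (PBS), so the needle and the fluid were common to both groups. By the methods PBS went into the right hindlimb and cardiotoxin (CDTX) into the left hindlimb of each mouse, so the PBS muscles came from mice whose other leg was damaged. The muscle was therefore uninjured only in the sense that it received no toxin. The other 4 pools, CDTX + SHAM and CDTX + SCI, were used for 1 comparison at the end.

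The measurement was an RT-qPCR panel of 755 assays on 2 plates, of which 752 were for miRNAs. Its value is the Cp, the cycle at which the signal appears, so the earlier the cycle, the more template, by about 2 times for each cycle. An assay was kept where the Cp was at most 32 in all 4 PBS pools, which left 148 assays of 139 miRNAs. The log2 level of an assay is the mean Cp of the references (miR-125b-5p, miR-23b-3p and miR-24-3p) minus its own Cp. The SCI ratio is the log2 level in PBS + SCI minus that in PBS + SHAM of the same day, so that a negative ratio means a lower level after SCI. Another 27 assays passed the limit of 32 in some of the 4 pools only. Between 53.5% and 58.0% of the miRNA assays per pool stood at the highest recorded Cp of 36. The reference Cp was 24.7 and 24.9 in PBS + SHAM and PBS + SCI at D2, and 25.4 and 25.2 at D4. The later signal at D4 was shared by both surgeries.

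miRNAs are short RNAs that guide Argonaute proteins to messenger RNAs and lower their translation or stability. The target is found mainly through the seed, bases 2 to 8 from the 5′ end, so miRNAs with the same seed form a family with overlapping targets. In skeletal muscle the myomiRs miR-1, miR-133a, miR-133b and miR-206 are induced by the myogenic transcription factors. miR-1 and miR-133a make up much of the miRNA of mature fibres, while miR-206 is known for its induction in denervated and regenerating muscle. Transection of the cord removes descending input, but leaves the motor neurons below the lesion connected to the muscle.

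The mature sequences of 4 miRNAs are shown because their level was lower after SCI on both days by the rule of size given with the results. They are RefSeq's, with coordinates on GRCm38.p6, and capitals mark the seed. Of the 148 assays, 108 matched a RefSeq mature miRNA by name.
miR-144-3p: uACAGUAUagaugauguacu
let-7b-5p: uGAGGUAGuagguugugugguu
miR-214-3p: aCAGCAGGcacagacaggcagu
miR-484: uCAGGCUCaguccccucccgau
miR-144-3p lies at chr11:78073047-78073066 on the plus strand, in Mir144. let-7b-5p lies at chr15:85707325-85707346 (plus strand, Mirlet7b), miR-214-3p at chr1:162223438-162223459 (plus strand, Mir214) and miR-484 at chr16:14159630-14159651 (plus strand, Mir484). The 4 have 4 different seeds.

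The defining markers of the tissue were at high levels. In PBS + SHAM at D2 miR-133a-3p appeared at a Cp of 19.74, miR-133b at 19.95, miR-1-3p at 20.08 and miR-206 at 23.98. miR-208b-3p and miR-499a-5p, made from myosin genes of slow fibres, were above the limit of 32 in all 4 pools. miR-122-5p, the marker of liver, stood at 36 in all 4 pools, and none of the 7 epithelial assays reached 32.

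No assay passed the test between PBS + SCI and PBS + SHAM. With day as a block, limma called 0 of 148 assays (0% at a Benjamini-Hochberg adjusted p under 0.05), and 3 assays had an unadjusted p under 0.05. The lowest adjusted p was 0.383, for miR-144-3p. Each assay had 1 residual degree of freedom, and limma's estimate gave all 148 assays the same standard error, 0.266 on the log2 scale. The 14 other settings gave 0 calls in 13 fits and 1 call in the other, with 1 to 8 assays at an unadjusted p under 0.05. That 1 call was miR-144-3p on plate 1 alone (adjusted p = 0.039), a setting chosen after seeing the data. Over the settings that kept miR-144-3p, its adjusted p ran from 0.039 to 0.993. A pool averages its muscles, so these pools do not show the spread between mice, and p-values measure only the scatter of the 2 day pairs.

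The ratios of the 2 days had little in common. The median ratio of all 148 assays was 0.05 at D2, with an SD of 0.31 across assays, and -0.22 at D4, with an SD of 0.28. At D2, 83 assays were above 0 and 65 below, against 27 above and 121 below at D4. The ratio had the same sign on both days in 62 assays and opposite signs in 86. Of the 62, 12 were higher on both days (8.11% of all assays) and 50 were lower (33.8%). Across assays Pearson's r between D2 and D4 was -0.13 and Spearman's rho was -0.09, over 148 assays that share references, plates and pools. These are descriptions, since assays are not replicates.

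**Figure D1:**
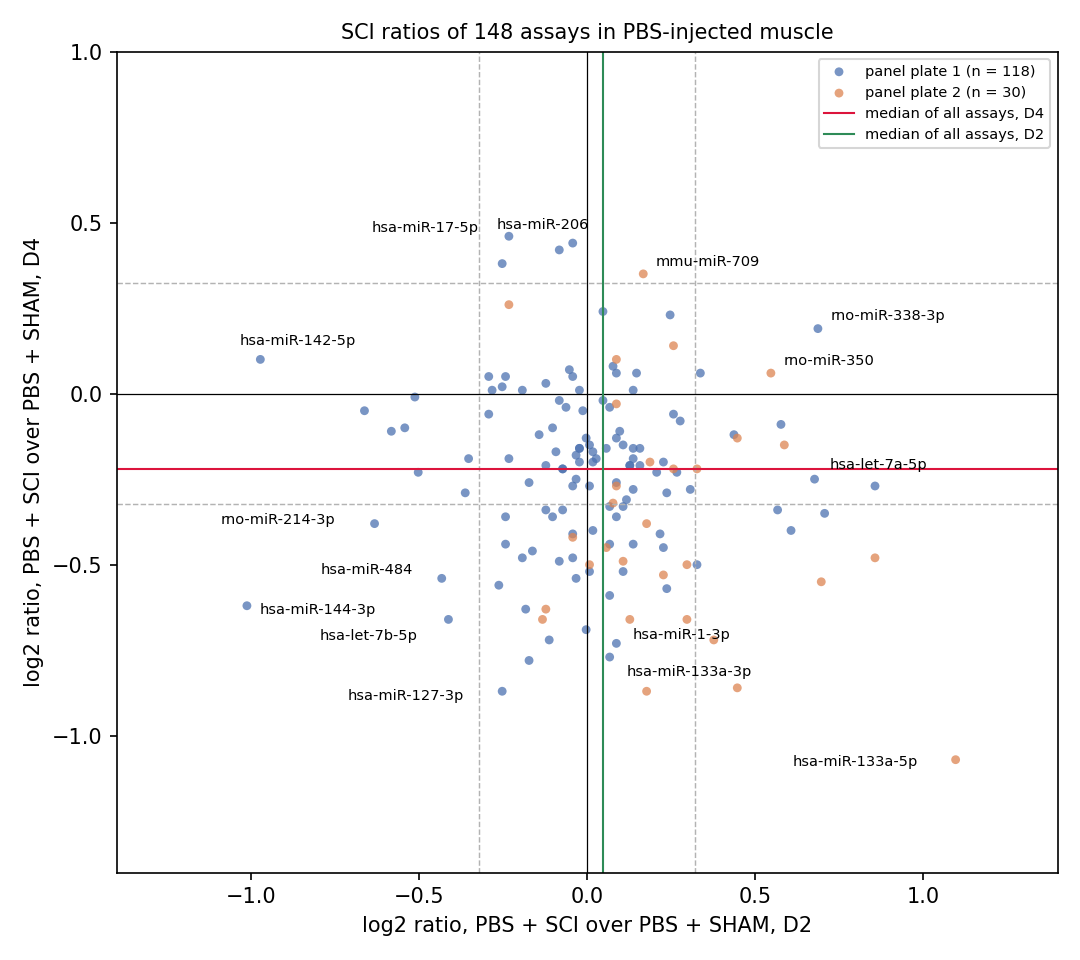
SCI ratio (log2, PBS + SCI over PBS + SHAM) at D2 on the x axis against D4 on the y axis, 1 point per assay, coloured by panel plate. Dashed lines mark a ratio of 0.32 in either direction and coloured lines the medians of all 148 assays, 0.05 at D2 and -0.22 at D4; no assay lies past the dashed lines in the upper right corner and 4 lie past them in the lower left.

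The median at D4 stayed negative under each other choice of reference miRNAs. It was -0.28 with only miR-23b-3p as reference, -0.20 with only miR-125b-5p and -0.18 with only miR-24-3p. With the deposited ratios to 4 miRNAs it was -0.17. With the mean Cp of the 148 assays (the global mean) in place of the 3 references, the median ratio was 0.01 at D2 and 0.03 at D4. The global mean centres the same assays on their own mean. Its medians therefore cannot show whether the lower D4 median depended on the reference. On the global-mean scale 38 assays were higher on both days and 31 were lower. The 3 references had ratios between -0.08 and 0.15 on both days. A lower D4 ratio is therefore best read beside the median of -0.22.

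A ratio of at least 0.32 in size on the log2 scale, on both days and in the same direction, was reached by 4 assays that were lower (2.7% of 148) and by 0 that were higher (0%). The 4 were miR-144-3p, let-7b-5p, the rno assay of miR-214-3p and miR-484. At 1.5-fold, 1 assay passed, miR-144-3p, and at 2-fold none did. On a single day the size of 0.32 was common. At D2, 19 assays were higher by it (12.8%) and 12 lower (8.11%), and at D4, 5 were higher (3.38%) and 56 lower (37.8%).

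miR-144-3p, which is transcribed with miR-451a in erythroid cells, had the lowest mean ratio of all. Its log2 level was -5.14 in PBS + SHAM and -6.15 in PBS + SCI at D2. At D4 it was -5.97 in PBS + SHAM and -6.59 in PBS + SCI. Both SCI pools lay below both SHAM pools. A choice of assays lower on both days favours this order, and its share of all 148 assays was not counted. The ratios were -1.01 at D2 and -0.62 at D4, a mean of -0.82 with a standard error of 0.266 (limma, 2 pools against 2), which is 0.57 times the SHAM level. Its Cp was 29.82, 31.01, 31.32 and 31.76 in the order PBS + SHAM D2, PBS + SCI D2, PBS + SHAM D4 and PBS + SCI D4, close to the limit of 32 in 3 of the pools.

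The other erythroid markers were lower too, by less or at the edge of detection. miR-486-5p, which comes from the erythroid gene Ank1 and is also made in muscle, had ratios of -0.24 and -0.36. miR-451a was above the limit in all 4 pools, at a Cp of 33.12 in PBS + SHAM and 35.12 in PBS + SCI at D2, and of 35.09 and 35.44 at D4. So all 3 erythroid assays had the later signal in PBS + SCI on both days, before and after subtracting the reference for miR-144-3p and miR-486-5p. Of all 148 kept assays 33.8% had ratios below 0 on both days. miR-486-5p was in row A of plate 1, where the median ratio at D4 was -0.49. With the global mean its ratios were -0.28 and -0.11. In pooled tissue fewer blood cells and less RNA per cell cannot be told apart, and the share of red cells in these ratios was not tested.

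let-7b-5p, a member of the let-7 family that restrains cell growth and is low in stem cells, had log2 levels of -4.45 in PBS + SHAM and -4.86 in PBS + SCI at D2. At D4 they were -4.76 and -5.42. The SCI pools again lay below both SHAM pools, the order that the choice favours. The mean ratio was -0.54 (standard error 0.266, adjusted p = 0.993, limma).

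miR-484, whose known role is in mitochondrial fission, had log2 levels of -4.87 and -5.30 in PBS + SHAM and PBS + SCI at D2, and of -4.74 and -5.28 at D4. It had the closest agreement between days of the 4, with ratios of -0.43 and -0.54. Its mean ratio of -0.49 had an adjusted p of 0.993 in limma. With the global mean as reference its ratios were -0.47 and -0.29, short of 0.32 in size at D4. On that scale only miR-144-3p and let-7b-5p of the 4 met the rule of size.

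miR-214-3p comes from the Dnm3os transcript, which also carries miR-199a and is active in mesenchymal cells such as fibroblasts. In bone cells miR-214-3p is known to hold back the osteoblast factor ATF4. The rno assay gave log2 levels of -3.17 in PBS + SHAM and -3.80 in PBS + SCI at D2, and of -3.18 and -3.56 at D4. The hsa assay gave -3.50 and -4.0 at D2, and -3.64 and -3.87 at D4. Both assays had both SCI pools below both SHAM pools, an order whose share of all assays was not counted. Their targets on the panel differ only at the 3′ end, where the rno target stops 1 base earlier.
rno-miR-214-3p: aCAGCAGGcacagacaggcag
hsa-miR-214-3p: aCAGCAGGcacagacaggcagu
The mean ratios were -0.51 and -0.37 (limma, adjusted p = 0.993 for both). With the global mean as reference the D4 ratios shrank to -0.13 for the rno assay and 0.02 for the hsa assay, so the direction at D4 held on both scales for the rno assay only.

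**Figure D2:**
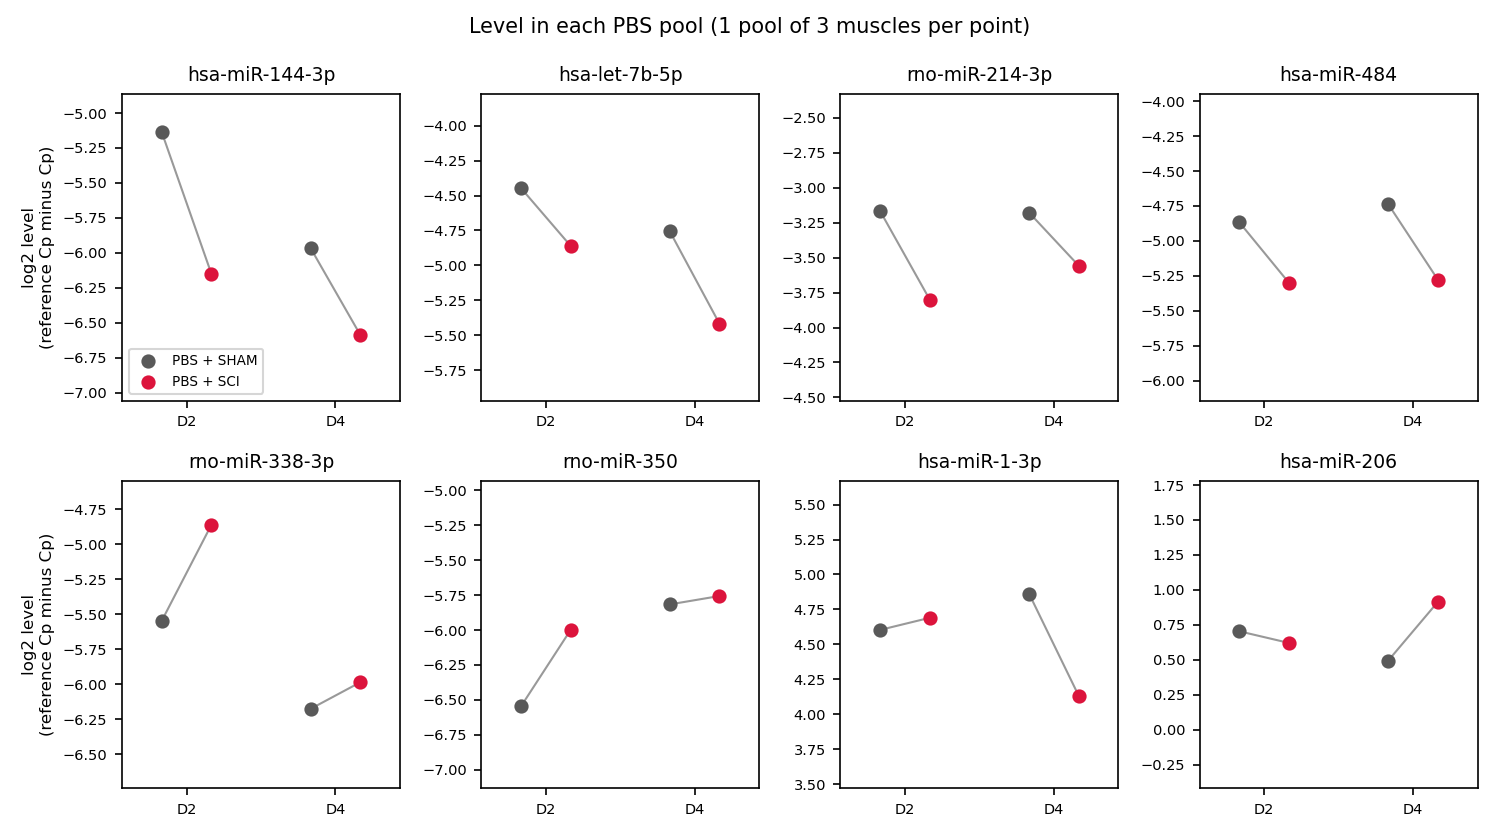
Log2 level (reference Cp minus Cp, y axis) of 8 assays in each PBS pool, PBS + SHAM in grey and PBS + SCI in red, joined within each day; every panel spans the same range of 2.2 on the log2 scale. The SCI pool is lower on both days in the first 4 panels, and miR-1-3p and miR-206 move in opposite directions at D4.

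The rest of the Dnm3os miRNAs were mixed. miR-199a-3p had log2 levels of -2.02 and -2.56 in PBS + SHAM and PBS + SCI at D2, and of -2.31 and -2.41 at D4. The ratios of -0.54 and -0.10 make the difference mainly one of D2. miR-199a-5p had ratios of -0.17 and -0.26, and miR-214-5p, on plate 2, of -0.23 and 0.26. In all, 4 of the 5 Dnm3os assays were lower on both days, where 33.8% of all assays were. The 5 assays are of 4 miRNAs, and the lower ones include both assays of miR-214-3p. RefSeq lists 2 loci under the name miR-199a-3p, on chromosomes 1 and 9. Loci of other names with the same sequence were not searched for. The list median was -0.50 at D2 and -0.23 at D4, against 0.05 and -0.22 for all assays. The list stood below the median of all assays at D2 and next to it at D4.

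The other miRNAs among the 10 lowest mean ratios of the same sign were miR-127-3p, miR-196b-5p, miR-26b-5p, miR-193b-3p, miR-1900 and the rno assay of miR-1-3p. miR-127-3p, an imprinted miRNA of the Dlk1-Dio3 locus, had log2 levels of -3.93 and -4.18 in PBS + SHAM and PBS + SCI at D2, and of -3.61 and -4.48 at D4. Its mean ratio was -0.56 with an unadjusted p of 0.037 and an adjusted p of 0.993 (limma). The difference lay at D4, where its ratio of -0.87 was close to the lowest of all. The other 5 shared this shape. Their ratios were between -0.11 and -0.26 at D2 and between -0.56 and -0.78 at D4. miR-127-3p, miR-196b-5p and miR-26b-5p sat in row A of plate 1, where the median ratio at D4 was -0.49 over 13 assays, against -0.19 over the other 105 assays of that plate. The part of the row in their ratios was not tested.

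The ratios of the same sign above 0 were smaller. The highest mean was that of the rno assay of miR-338-3p, a miRNA known for promoting oligodendrocyte differentiation. Its log2 levels were -5.55 in PBS + SHAM and -4.86 in PBS + SCI at D2, and -6.18 and -5.99 at D4. The ratios were 0.69 and 0.19, and the mean of 0.44 had an adjusted p of 0.993 (limma). The hsa assay gave 0.58 at D2 and -0.09 at D4, so the assays had like values at D2 and opposite signs at D4.
rno-miR-338-3p: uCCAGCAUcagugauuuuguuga
hsa-miR-338-3p: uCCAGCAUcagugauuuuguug

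The second highest, the rno assay of miR-350, showed the same limit. Its ratios were 0.55 and 0.06, whereas the mmu assay of miR-350-3p, whose target lacks the last 2 bases, gave 0.24 and -0.57. The rno assay was on plate 2 and the mmu assay on plate 1.
rno-miR-350: uUCACAAAgcccauacacuuucac
mmu-miR-350-3p: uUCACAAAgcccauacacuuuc

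miR-709 had ratios of 0.17 and 0.35, and miR-376c-3p, of the Dlk1-Dio3 locus, 0.25 and 0.23. miR-204-5p, known for restraining the osteoblast factor Runx2, had 0.34 and 0.06. The 10 highest also held miR-92a-3p (0.26 and 0.14), miR-20a-5p (0.05 and 0.24) and miR-19a-3p (0.08 and 0.08), which belong to the miR-17 to miR-92a cluster. miR-532-3p (0.09 and 0.10) and the reference miR-23b-3p (0.15 and 0.06) completed them. Each of these was under 0.32 on at least 1 day.

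How far 2 assays of 1 miRNA differ gives a technical error for these ratios. For 9 miRNAs both assays were kept, and their ratios differed by 0.29 (root mean square over 18 pairs of values), with a median of 0.15 and a largest difference of 0.72. A difference carries the error of both assays, so it overstates the error of 1 ratio. It is therefore not directly comparable with the SD of all ratios. Both assays were on the same plate for 8 of the 9 miRNAs, so the value covers the assay and not a shift of a plate, a pool or a mouse. Of the 4 assays that reached 0.32 on both days, only miR-214-3p had a second kept assay.

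The myomiRs of mature fibres were near 0 at D2 and lower at D4. The hsa assay of miR-1-3p had log2 levels of 4.60 in PBS + SHAM and 4.69 in PBS + SCI at D2, and of 4.86 and 4.13 at D4. miR-133a-3p had 4.94 and 5.01 at D2, and 5.34 and 4.57 at D4. miR-133b had 4.73 and 4.69 at D2, and 4.94 and 4.53 at D4. For all 3 the PBS + SHAM pool at D4 was the highest of the 4 pools and the PBS + SCI pool at D4 the lowest.

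The D4 ratios were -0.77 for miR-133a-3p, -0.73 for miR-1-3p and -0.41 for miR-133b, against the median of -0.22. With the global mean they were -0.52, -0.48 and -0.16. The second assay of miR-1-3p, named for rat, detected it about 10 cycles later (Cp 30.29 against 20.08 in PBS + SHAM at D2) and gave -0.17 at D2 and -0.78 at D4. miR-1-3p and miR-133a-3p were also assays of row A of plate 1, as was miR-22-3p, a miRNA of striated and heart muscle, with a ratio of -0.0033 at D2 and -0.69 at D4. The rno assay of miR-1-3p was in row H and miR-133b in row K.

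miR-206 went the other way. Its log2 levels were 0.70 and 0.62 in PBS + SHAM and PBS + SCI at D2, and 0.49 and 0.91 at D4. The ratio was -0.08 at D2 and 0.42 at D4, and with the global mean -0.12 and 0.67. The mean ratio of 0.17 had an adjusted p of 0.993 (limma). miR-206 and miR-133b come from 1 locus, at chr1:20679055-20679076 and chr1:20682834-20682855, and had opposite signs at D4. Their sequences are shown because they come from 1 locus and have different seeds.
miR-206: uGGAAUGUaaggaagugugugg
miR-133b: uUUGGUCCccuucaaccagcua

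The passenger strand miR-133a-5p had the widest swing of all. Its hsa assay had log2 levels of -5.76 and -4.66 at D2, and of -3.97 and -5.04 at D4, giving ratios of 1.1 and -1.07. The mmu assay gave 0.38 and -0.72, the same signs at a smaller size. Both were on plate 2. Over the 8 kept assays of the striated muscle list, of 6 miRNAs, 0 were higher and 3 lower on both days. Of all assays 8.11% were higher and 33.8% lower. The list median was 0.01 at D2 and -0.73 at D4, against 0.05 and -0.22 for all assays, and 7 of its 8 assays were lower by at least 0.32 at D4. Among all assays 37.8% were. Of those 7, miR-1-3p (hsa), miR-133a-3p and miR-486-5p were in row A of plate 1, where the D4 median was -0.49. Both assays of miR-133a-5p were on plate 2, where it was -0.44. The part of these positions in the ratios was not tested.

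The miR-378a arms come from an intron of Ppargc1b, a coactivator gene of energy metabolism. miR-378a-3p had ratios of -0.10 and -0.36, and miR-378a-5p of 0.13 and -0.66. Of the list on muscle atrophy and denervation, 5 of 9 assays were kept. None reached 0.32 in 1 direction on both days, and the list median was -0.08 at D2 and -0.06 at D4. miR-21-5p, induced in denervated and inflamed muscle, had ratios of -0.29 and -0.06. miR-23a-3p, known for restraining the atrophy ligases, had 0.07 and -0.04, and its cluster partner miR-27a-3p had 0.09 and -0.13. miR-23a-3p thus stayed within 0.07 of 0 on both days.

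The activity-linked miRNAs of the CREB target locus miR-132 and miR-212 were not measurable by the kept limit. miR-132-3p was at a Cp of 31.41 in PBS + SHAM and 31.54 in PBS + SCI at D2, and of 31.85 and 32.89 at D4, just inside the limit in 3 pools and just outside in the fourth. The other 3 assays of the list were at or above 35.16 in every pool. Neuronal markers gave little signal. miR-124-3p ran from 32.92 to 34.34 and miR-9-5p from 33.68 to 34.74, and only miR-128-3p was kept, with ratios of -0.0033 and -0.13.

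**Figure D3:**
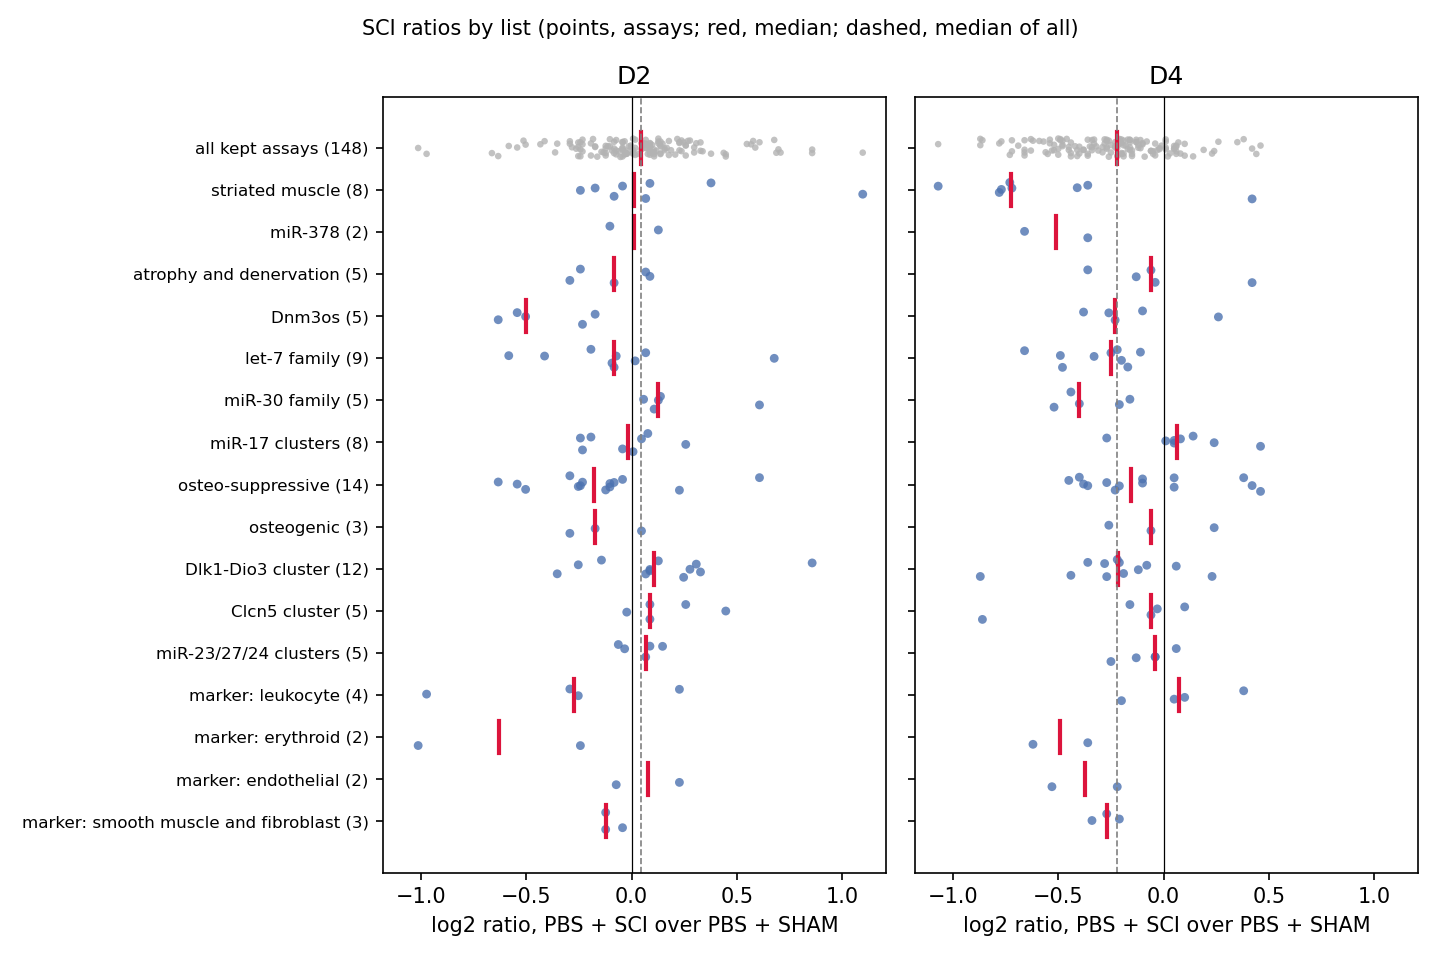
SCI ratio (log2, x axis) of every kept assay by list (rows, number of kept assays in brackets), at D2 on the left and D4 on the right; red bars are list medians and the dashed line the median of all 148 assays. The striated muscle list lies near 0 at D2 and at a median of -0.73 at D4, and the Dnm3os list at -0.50 at D2 and -0.23 at D4.

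The let-7 family was the largest group with a common seed. All 9 kept members hold GAGGUAG. On both days 6 were lower and 0 higher, where 33.8% of all assays were lower and 8.11% higher. The family medians were -0.08 and -0.25, against 0.05 and -0.22 for all assays. With the global mean the family median of the mean ratio was -0.04, against 0.01 for all assays. The members ran from -0.58 (let-7e-5p) to 0.68 (let-7a-5p) at D2. let-7a-5p had log2 levels of -1.87 and -1.19 at D2, and of -1.17 and -1.42 at D4. Their sequences show how alike the members are, since miR-98-5p and let-7a-5p differ from let-7b-5p at few bases, all outside the seed.
let-7b-5p: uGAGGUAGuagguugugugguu
let-7a-5p: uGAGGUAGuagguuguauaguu
miR-98-5p: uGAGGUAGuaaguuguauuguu
How much an assay amplifies the other members was not measured here, so the ratios of single let-7 members are uncertain.

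The miR-30 family, abundant in muscle, was above 0 at D2 and below 0 at D4 in all 5 members. Of all 148 assays 71 had these signs. The ratios ran from 0.06 to 0.61 at D2 and from -0.52 to -0.16 at D4. The family medians were 0.13 and -0.40, on the same sides of 0 as those of all assays, and miR-30e-5p was the highest at D2. With the global mean 2 of the 5, miR-30b-5p and miR-30d-5p, were above 0 at D4 too, at 0.09 and 0.04.

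The miR-17 clusters, known for promoting proliferation, were the highest list at D4 among the families and clusters. Their 8 kept assays had a median of -0.02 at D2 and 0.07 at D4, and 3 were higher and 0 lower on both days. Of all assays 8.11% were higher and 33.8% lower on both days. miR-17-5p had log2 levels of -4.78 and -5.01 at D2, and of -5.09 and -4.63 at D4, the highest D4 ratio of all 148 assays at 0.46. miR-20a-5p, miR-93-5p and miR-106b-5p share its seed AAAGUGC, and the 4 ran from -0.24 to 0.05 at D2 and from 0.01 to 0.46 at D4. No member of this seed was below 0 at D4, where 121 of 148 assays were.
miR-17-5p: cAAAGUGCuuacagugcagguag
miR-20a-5p: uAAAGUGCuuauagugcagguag

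The leukocyte list had 4 kept assays. miR-142-5p, made in blood cells, had log2 levels of -3.22 and -4.19 at D2, and of -3.87 and -3.77 at D4, with ratios of -0.97 and 0.10. The hsa assay of miR-223-3p, a granulocyte and monocyte miRNA, had ratios of -0.25 and 0.38, and the rno assay -0.29 and 0.05. miR-150-5p, of lymphocytes, had 0.23 and -0.20. The assays of miR-142-5p and miR-223-3p were thus lower at D2 and higher at D4 after SCI, while miR-150-5p had the opposite signs. Of all 148 assays 15 were lower at D2 and higher at D4. The assays beyond the limit were mixed. miR-142-3p, the other arm, was just outside the limit, at a Cp of 31.56 in PBS + SHAM and 32.65 in PBS + SCI at D2, and of 32.83 and 32.38 at D4. miR-146a-5p had ratios of -0.18 and 0.34. The rno assay of miR-146b-5p gave 0.21 and 0.24, and the hsa assay, above 32 in all 4 pools, gave -0.33 and -0.99. miR-155-5p was at or above 34.11 in every pool.

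The endothelial miRNAs miR-126-3p and miR-126-5p had ratios of -0.07 and 0.23 at D2, and of -0.22 and -0.53 at D4. miR-145-5p, a miRNA of vessel walls and fibroblasts, had -0.12 and -0.34, and the 2 assays of miR-143-3p lay between -0.12 and -0.04 at D2 and between -0.27 and -0.21 at D4. All 3 assays of that list, of 2 miRNAs, were lower on both days, as were 33.8% of all assays. The list medians were -0.12 and -0.27, against 0.05 and -0.22 for all assays.

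The panel was a general one, from which the study chose candidates linked to bone, muscle and inflammation. It also measured candidates in single muscles, which were not used here. There it reports miR-1-3p lower after SCI alone at D4, and miR-30e-5p reduced by SCI at D4. The candidates it linked to bone formation follow here. Of the osteo-suppressive list 14 of 16 assays were kept, with 0 higher and 7 lower on both days. Of all assays 33.8% were lower on both days. The list medians were -0.18 and -0.16, against 0.05 and -0.22 for all assays, so the list lay below that level at D2 and above it at D4. One of them, the rno assay of miR-214-3p, was lower by at least 0.32 on both days. miR-16-5p had ratios of -0.10 and -0.10, and miR-93-5p of -0.24 and 0.05. miR-574-3p had 0.23 and -0.45, and miR-30e-5p 0.61 and -0.40, so both changed sign. In the osteogenic list, both miR-199a-5p and miR-21-5p had ratios below 0 on both days and miR-20a-5p above 0, none past 0.32 in size on either day. The lists were taken from the study, which worked with these pools too, so their direction here is not independent evidence.

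Among the Dlk1-Dio3 miRNAs, an imprinted cluster active in muscle progenitors, 12 of 85 assays were kept. They had 2 higher and 3 lower on both days, where 8.11% of all assays were higher and 33.8% lower. Their medians were 0.11 and -0.22. The Clcn5 cluster (5 of 11 assays kept) had medians of 0.09 and -0.06. The 5 assays of the miR-23/27/24 clusters, which include 2 of the references, ran from -0.06 to 0.15 at D2 and from -0.25 to 0.06 at D4.

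The panel plates differed, and all 3 references were on plate 1. At D2 the median ratio was -0.01 for the 118 kept assays of plate 1 and 0.18 for the 30 of plate 2. At D4 it was -0.21 and -0.44. Within PBS + SHAM the log2 level on plate 2 was higher at D4 than at D2 by a median of 0.58, against 0.05 within PBS + SCI. The 2 days thus moved plate 2 in opposite directions. With each plate centred on its median in each pool, 30 assays were higher and 35 lower on both days, in place of 12 and 50. The part of the plates in the ratios of plate 2 was not tested. miR-144-3p, let-7b-5p, miR-484 and both miR-214-3p assays were on plate 1, where their centred ratios were -0.92, -0.315, -0.34, -0.54 (rno) and -0.41 (hsa) at D2, and -0.46, -0.50, -0.38, -0.22 and -0.07 at D4. Of the 4 assays that were lower by the size rule, 2 met it after centring, miR-144-3p and miR-484. let-7b-5p just missed it at D2 and the rno assay of miR-214-3p missed it at D4, while miR-1900 and miR-28-3p of plate 2 met it.

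**Figure D4:**
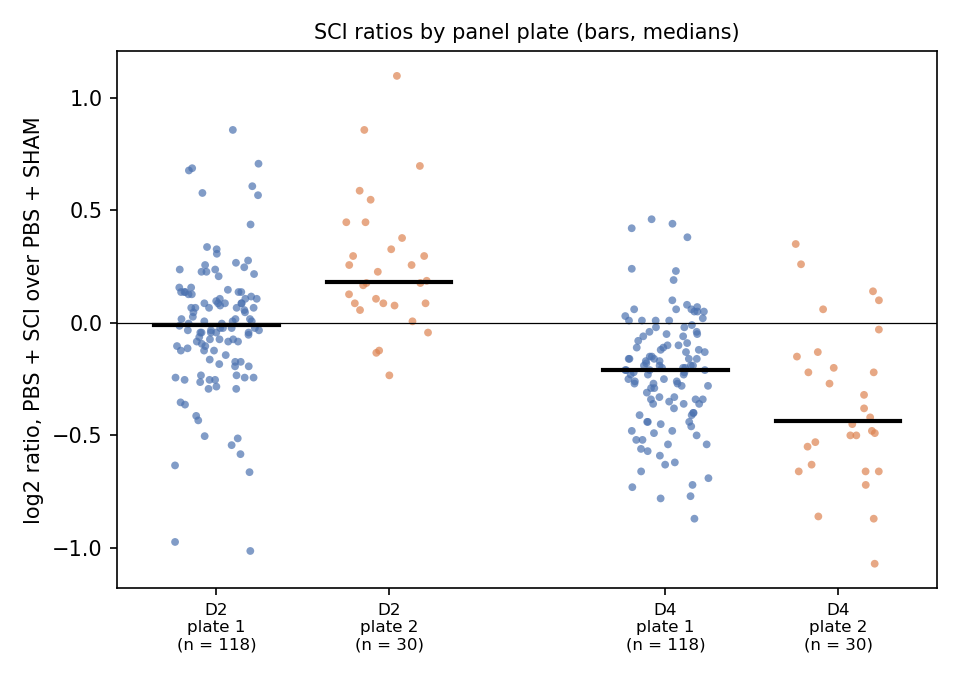
SCI ratio (log2, y axis) of the kept assays by day and panel plate, 1 point per assay, with bars at the medians. Plate 2 (n = 30) lies above plate 1 (n = 118) at D2, with medians of 0.18 and -0.01, and below it at D4, with medians of -0.44 and -0.21.

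Of the 27 assays just outside the limit, 4 were higher by at least 0.32 on both days and 1 was lower. Among the 148 kept assays 0 were higher and 4 lower. They were named after their values were seen. miR-322-3p (mmu assay) had a Cp of 32 in PBS + SHAM and 31.17 in PBS + SCI at D2, and of 32.51 and 31.71 at D4. miR-2137 had 31.96 and 31.44 at D2, and 32.74 and 31.95 at D4. miR-1949 and let-7b-3p had mean ratios of 0.53 and 0.52. Both had a Cp of at most 32 in PBS + SCI pools only, so the limit admitted them through the group where they were higher. All 4 were on plate 2, and none had a Cp above 32.78 in any of the 4 pools. The rno assay of miR-322-3p, whose target is 1 base shorter, was kept and gave 0.06 and -0.45, against 1.01 and 0.62 for the mmu assay. The assay that was lower was miR-324-3p (mmu), with ratios of -0.43 and -0.71. It was within the limit in PBS + SHAM at D2 only, at a Cp of 31.99.

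The comparison of SCI in PBS muscle with SCI in CDTX muscle asks whether the same assays shift when the muscle is damaged. It used the 123 assays whose Cp did not exceed 32 in any of the 8 pools. The PBS and CDTX ratios share no pool, though the muscles may come from the same mice. The SCI ratio with CDTX minus that without was called for 0 of 123 assays (0%, limma, 2 residual degrees of freedom), with 3 at an unadjusted p under 0.05 and a lowest adjusted p of 0.970. The ratios were more widely spread with CDTX, where the SD was 0.49 (D2) and 0.43 (D4), against 0.29 and 0.26 for the same assays without. The SD at D2 with CDTX includes a ratio of 3.35 for the hsa assay of miR-1-3p, which rests on 1 pool. The SD without that assay was not calculated.

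Of the 43 assays lower on both days in PBS muscle, 25 were lower on both days in CDTX muscle as well. That is 58.1% of them, against 33 of the other 80 (41.3%). The median ratio of the 123 assays with CDTX was -0.08 at D2 and -0.20 at D4. Only the reference miR-23b-3p was higher in all 4 comparisons. Another reference, miR-125b-5p, was among the 25, with ratios between -0.17 and -0.02. The ratios of the 3 references average 0 by construction. Both assays of miR-214-3p were among the 25, and their D4 ratios were larger with CDTX, -1.35 (rno) and -1.3 (hsa) against -0.38 and -0.23 without. miR-199a-3p and miR-199a-5p were lower in all 4 as well, at -0.94 and -0.76 with CDTX at D4. let-7b-5p had ratios of -0.35 and -0.67 with CDTX, next to -0.41 and -0.66 without. miR-484 had -0.84 and -0.44 with CDTX, and miR-127-3p -0.14 and -1.35. miR-144-3p was not among the 123 assays, because its Cp in CDTX + SHAM at D4 was 32.22. Its ratios with CDTX were -0.49 at D2 and 0.77 at D4, so at D4 it was higher after SCI in CDTX muscle and lower in PBS muscle.

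**Figure D5:**
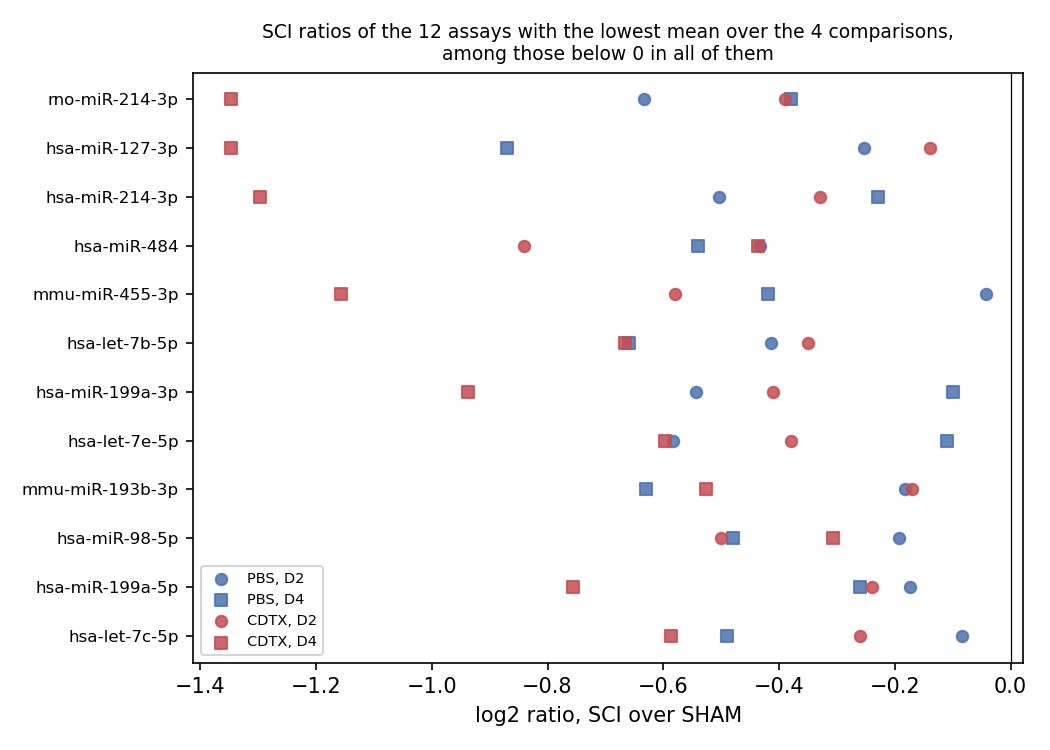
SCI ratio (log2, x axis) in PBS muscle (blue) and CDTX muscle (red) at D2 (circles) and D4 (squares) for the 12 assays with the lowest mean over the 4 comparisons among the 25 that were below 0 in all of them. The assays of miR-214-3p and miR-127-3p reach -1.35 with CDTX at D4, while let-7b-5p has like values with and without CDTX.

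The myomiRs had these ratios in the damaged muscle. miR-133a-3p had ratios of 0.26 and 0.06 with CDTX, against 0.07 and -0.77 without, and miR-133b 0.30 and -0.14, against -0.04 and -0.41. miR-206 had -0.52 and -0.18, against -0.08 and 0.42. The signs with and without CDTX were thus shared on some days and opposite on others. The hsa assay of miR-1-3p had 3.35 and 0.13 with CDTX, against 0.09 and -0.73. The value at D2 rests on the CDTX + SHAM pool, at a Cp of 26.28 where the other CDTX pools ran from 22.9 to 23.64. The rno assay, beyond the limit of 32 in all 4 CDTX pools, gave 0.05 and -0.25. For the hsa assay the difference from PBS muscle, as the mean of both days, was 2.06 with an unadjusted p of 0.025 and an adjusted p of 0.970 (limma). miR-338-3p (rno) was the second assay with an unadjusted p under 0.05, at -0.98 and -0.04 with CDTX against 0.69 and 0.19 without. None of these differences passed the test.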

How the data were processed

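The Cp table was the main source. The authors deposited Cp values, a log2 quantity that falls as template rises, with no normalization, from an LNA RT-qPCR panel with SYBR Green. The second deposited table holds a ratio to reference miRNAs. Tested on the values, it equals the ratio to 4 miRNAs to within 0.0068 on the log2 scale, and it was used for assay names and as an alternative. The deposited fold table holds the authors' own comparisons and was not used. The 3 assays not of a miRNA were left out. Names lost their species prefix, except where 2 assays differ.

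Level, SCI ratio and Cp limit were as given above. limma 3.58.1 in R 4.3.3 fitted surgery with day as a block to 148 assays, with Benjamini-Hochberg adjustment, and was tested on simulated data. The members, lists and thresholds were chosen with earlier results of these data known. Named miRNAs were the 10 highest and 10 lowest mean ratios of the same sign on both days, list members, the study's miRNAs and second assays. Alternatives were other references, Cp limits, thresholds, fits and 1 assay per miRNA. Plate settings were added after seeing the data. Analyses used Python 3.11.15.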

Additional observations from a re-analysis of the deposited data

Results flagged for a closer look

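In 9 of 148 assays the SCI ratio in PBS muscle was at least 0.32 in size (log2) on both days, with opposite signs. The difference between days was not tested, since 4 pools leave no residual degree of freedom for it. All 9 were higher after SCI at D2 and lower at D4, the signs of 71 of all 148 assays. On a single day 19 of the 148 were higher by this size at D2 and 56 lower at D4. The D2 ratio minus the D4 ratio was 2.17 for the hsa assay and 1.1 for the mmu assay of miR-133a-5p. It was 1.34 for miR-7-1-3p, 1.31 for miR-501-5p and 1.247 for miR-30a-3p, and these 5 assays were on plate 2. On plate 1 it was 1.06 for miR-185-5p, 1.01 for miR-30e-5p, 0.91 for miR-10b-5p and 0.83 for miR-130a-3p. The part of the plates in these values was not tested.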

How the results depend on the processing

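The main fit pairs the pools by day, and without the day block 0 assays were called too. Each group holds 1 pool, so no replicate could be left out. Under 14 other settings the count of assays called between PBS + SCI and PBS + SHAM was 0 in 13, and 1 on plate 1 alone, a setting added after seeing the data. The 4 assays lower by at least 0.32 (log2) on both days became 2 with the global mean, 11 with miR-23b-3p alone, 1 with a Cp of at most 30 and 9 with at most 34. They became 17 at 1.1-fold, 1 at 1.5-fold, 0 at 2-fold and 50 by sign only. The 0 higher became 1 with the global mean, 5 with a Cp of at most 34, 2 with each plate centred (added after seeing the data, where 4 were lower, of which 2 were among the main 4), 4 at 1.1-fold and 12 by sign only. With miR-23b-3p alone, the mean ratios of miR-532-3p and miR-19a-3p turned to -0.01 and -0.025. These were 2 of 123 values of single assays under other settings, and the others kept their sign. The cause of these differences was not tested. The difference between SCI ratios with and without CDTX had 0 calls under the global mean, a trended prior and centred plates.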
